A study of Mus musculus with 12 samples.

Results

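Egr2, Egr3, Myc, Atf3, Cebpb and Cebpd are genes of transcription factors that cells switch on quickly when they are stimulated or stressed. They were taken by symbol from a table of genes that its authors listed as changed in mouse heart, and all 6 members were found among its 3939 listed genes. The tissue was the whole muscle wall of the left ventricle. It came from female and male mice with the genotype WT C57Bl6J/129X1 hybrid, of an age that the labels leave out. The control mice received NaCl and the treated mice an infusion of AngII/PE, each for 3 days. AngII/PE usually stands for the pressor peptide angiotensin II together with phenylephrine, which activates alpha-1 adrenergic receptors. The 12 RNA sequencing libraries were 3 from control females, 3 from control males, 3 from treated females and 3 from treated males. The table gives a log2 fold change of treated over control and an adjusted p for each gene. Values per library were not analysed here, so levels, the spread between mice, sequencing depth and any difference between the sexes are unknown. Because genes entered the table as changed, the presence of the members in it is not a result.

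An immediate early gene is transcribed as soon as a signal arrives, without new protein synthesis, and its messenger RNA is usually short-lived. In heart muscle such genes are classic responders to angiotensin II, alpha-1 adrenergic agonists and stretch, which act on them through MAP kinases, calcium signals and serum response factor. The only time sampled here was 3 days, so the first response to the infusion was not observed. EGR proteins bind GC-rich DNA with zinc fingers. ATF3 and the C/EBP proteins are basic leucine zipper factors that bind DNA as dimers, and MYC binds E-boxes together with MAX. C/EBP beta and delta are known for driving acute phase and inflammatory genes, and ATF3 is known as a stress-induced repressor.

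The 6 factors fell into a group with large fold changes and a group with very small ones. Egr3 (log2 fold change 2.05), Egr2 (1.81) and Myc (1.55) were 4.14-fold, 3.51-fold and 2.92-fold higher after AngII/PE in the authors' deposited table. Cebpd (0.44), Cebpb (0.41) and Atf3 (0.09) were 1.36-fold, 1.33-fold and 1.07-fold higher in the authors' deposited table. Egr3, Egr2 and Myc stayed higher when all fold changes were recentred on the median of the listed genes (0.67), whereas Cebpd, Cebpb and Atf3 then turned lower. That median is taken over genes already selected as changed, so it is not an estimate of no change, and any rise under it must turn lower. No standard error accompanies these values, and the order of the factors was not tested. Of all listed genes 56.2% were higher, and 30.7% had a log2 fold change of at least 1, as 3 of the 6 factors had. Since the factors were drawn from the same comparison, nothing is read from these counts.

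**Figure D1:**
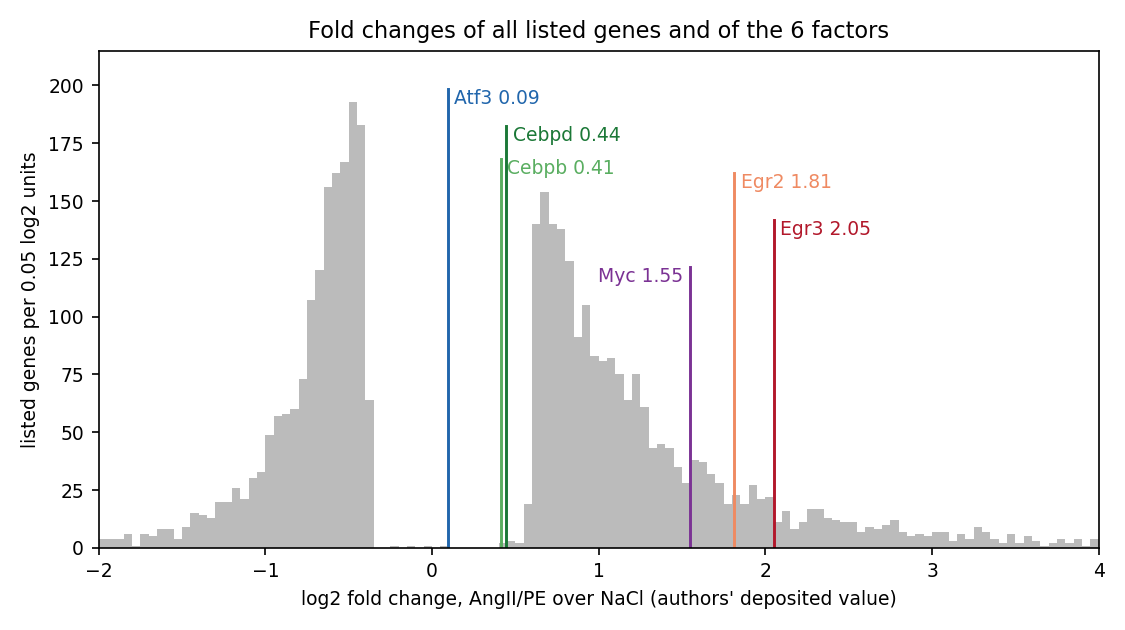
Histogram of the log2 fold changes (x axis, AngII/PE over NaCl, shown from -2 to 4) of all listed genes in bins of 0.05 (y axis, number of genes), with a colored line at the value of each of the 6 factors. Egr3, Egr2 and Myc lie in the right-hand slope, while Atf3, Cebpb and Cebpd stand in the almost empty stretch between falls and rises and would be lower if values were recentred on the median of the listed genes.

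Egr3 and Egr2 encode close relatives of the EGR family and were the highest of the 6. The adjusted p in the authors' deposited table was 8.09e-51 for Egr3, at 2.05, and 8.16e-38 for Egr2, at 1.81. They stood at places 315 and 419 of the 2213 listed rises ordered from the largest fold change. The fold change of Egr3 exceeded that of Egr2 by 0.24 on the log2 scale, a difference that was not tested. Egr3 (ENSMUSG00000033730.4) lies at chromosome 14, 70077203 to 70082614, and Egr2 (ENSMUSG00000037868.15) at chromosome 10, 67535475 to 67542188, both on the plus strand of GRCm38 (the assembly of mm10) in GENCODE M21.

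The transcripts of Egr3 and Egr2 share an unbroken run of 44 identical bases. Reads lying wholly inside it could be given to either gene, while a longer read would hold a base that differs. The sources used here do not state how reads matching more than 1 gene were counted, and sharing of reads between the pair was not tested.

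The promoter of Egr2 is shown because Egr2 had the largest fold change of the members matched in the RefSeq promoter table (GRCm38.p6). These were 3 of the 6, Egr2, Cebpb and Atf3. The table gives 5 start sites for Egr2. The 250 bases before that at 67537869, which is also the start of the GENCODE transcript with the longest coding sequence, are chr10:67537619-67537868 on the plus strand. Capitals mark a CArG box, the core of the element that serum response factor binds, and the letters TGACG or their reverse complement CGTCA, the core of the cyclic AMP response element.
Egr2: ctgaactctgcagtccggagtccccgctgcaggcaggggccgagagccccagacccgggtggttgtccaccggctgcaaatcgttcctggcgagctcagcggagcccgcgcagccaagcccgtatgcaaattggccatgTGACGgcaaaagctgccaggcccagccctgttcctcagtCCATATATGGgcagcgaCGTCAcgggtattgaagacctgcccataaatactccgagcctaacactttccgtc
Counted from the start site, with -1 as the base before it, the CArG box lies at -72 to -63 and the TGACG cores at -111 to -107 and -55 to -51. A CArG box was found in 1.47% of 32851 promoters of the same length and TGACG on either strand in 17.8%. Before other start sites of Egr2 there was a second CArG box, at -72 to -63 from 67537566, and an E-box at -27 to -22 from 67535499. The bases just after these other starts were not found unbroken in a GENCODE transcript of Egr2, unlike those after 67537869. The other motifs searched on both strands had no match in the window printed here: the full element TGACGTCA (1.55% of all promoters), the AP-1 motif TGANTCA (6.75%), the C/EBP palindrome TTGCGCAA (0.164%), the E-box CACGTG (6.02%) and the EGR motif GCGTGGGCG (0.536%). Matches to letters are a description and do not show that a factor was bound.

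Beyond Egr2 and Egr3, the list of the EGR family and its NAB corepressors held 1 further listed gene. Nab2, encoding a corepressor that binds EGR proteins, was 1.99-fold higher in the authors' deposited table, at 0.99 with an adjusted p of 4.10e-13. Egr1, Egr4 and Nab1 have no value analysed here, which does not show that they were unchanged. Of 9 genes of calcineurin and NFAT signalling, a calcium-driven route known to induce Egr2 and Egr3 in lymphocytes, 2 were listed and both were higher. That share is 22.2%, against 9.03% of all protein coding symbols in GENCODE M21. This background, used throughout, also counts genes silent in heart. Rcan1, a calcineurin-binding protein whose own gene responds to NFAT, was at 1.44 (adjusted p = 1.13e-57) and Nfatc4 at 1.04 in the authors' deposited table.

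Myc encodes a basic helix-loop-helix leucine zipper factor that promotes growth and ribosome production. At 1.55 on the log2 scale, it was 2.92-fold higher in the authors' deposited table, with an adjusted p of 2.02e-19, and stood at place 580 of 2213 rises. Myc (ENSMUSG00000022346.15) lies at chromosome 15, 61985391 to 61990374, on the plus strand. Its network was mixed, with 2 of 13 genes listed higher (15.4%), 2 lower (15.4%) and 9 without a value. Without Myc itself, 1 of the other 12 genes was higher and 2 were lower. Of all protein coding symbols, 9.03% were listed as higher and 6.19% as lower. Mxd3, a MAX partner of the family that opposes MYC, was at 2.51 (adjusted p = 2.43e-11) in the authors' deposited table. Mycn, the MYC paralog used in the developing heart, was at -0.76 (adjusted p = 1.11e-05) in the authors' deposited table, 2.31 log2 units below Myc. Mlxipl, a glucose-responsive factor also known as ChREBP, was at -0.69 (adjusted p = 1.81e-30) in the authors' deposited table. Max itself has no value analysed here.

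Most genes that MYC is known to drive had no value. Of 29 such genes, mostly of ribosome biogenesis, 1 was higher (3.45%) and 1 lower (3.45%), while 27 had no value analysed here, among them Ncl, Npm1, Fbl, Nop56, Odc1 and Cad. For scale, 9.03% of 21924 protein coding symbols in GENCODE M21 were listed as higher and 6.19% as lower, a background that also counts genes silent in heart. Rrp12, a ribosome processing factor, was at 0.67 in the authors' deposited table. Recentring on the median of the listed genes, which turns every rise under it lower, gave -0.01 for Rrp12. Tfrc, the transferrin receptor gene, was at -0.68 in the authors' deposited table, with an adjusted p of 7.69e-05.

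Cebpd and Cebpb, the genes of C/EBP delta and beta, changed little and by almost the same amount. Cebpd was at 0.44 (adjusted p = 1.17e-09) and Cebpb at 0.41 (adjusted p = 6.07e-06) in the authors' deposited table, a difference of 0.03 that was not tested. Both were below zero, at -0.23 and -0.26, when values were recentred on the median of the listed genes. Any rise under that median must turn lower. Cebpa, encoding the family member known from adipocytes, liver and myeloid cells, was larger at 0.94 (adjusted p = 2.16e-15, 1.92-fold) in the authors' deposited table, 0.50 log2 units above Cebpd. The other 4 genes of the C/EBP list, Cebpe, Cebpg, Cebpz and Ddit3, have no value analysed here.

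Both C/EBP genes are compact and have a single exon. Cebpd (ENSMUSG00000071637.5) lies at chromosome 16, 15887286 to 15891031, and Cebpb (ENSMUSG00000056501.3) at chromosome 2, 167688915 to 167690418, both on the plus strand. Each overlaps a gene on the opposite strand. Cebpd shares 562 exonic bases with Spidr, a DNA repair scaffold gene that was at 0.82 in the authors' deposited table, and Cebpb shares 312 with Tmem189, which has no value analysed here. The Cebpd transcript has 3746 bases and the Cebpb transcript 1504. The sources used here do not state whether counting used strand, so it is unknown whether reads from the shared bases were told apart.

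The most alike coding stretch of Cebpd and Cebpb, the best ungapped window of 90 bases, is shown because short reads from it could be given to either gene. It is written 5′ to 3′ with capitals at the 10 bases that differ. The Cebpd stretch is chr16:15887912-15888001 (coding bases 588 to 677 of 804) and the Cebpb stretch is chr2:167689702-167689791 (coding bases 681 to 770 of 888), both on the plus strand.
Cebpd: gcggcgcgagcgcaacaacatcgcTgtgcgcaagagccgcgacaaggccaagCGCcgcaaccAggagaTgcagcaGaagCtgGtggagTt
Cebpb: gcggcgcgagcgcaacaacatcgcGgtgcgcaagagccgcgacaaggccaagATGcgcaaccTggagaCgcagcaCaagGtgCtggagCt
The longest identical run of these transcripts is 27 bases, so a longer read would hold a base that differs. Sharing of reads between Cebpd and Cebpb was not tested. Among the other 13 pairs of the 6 factors the longest run is at most 14 bases, and between 40 and 51 bases of the best window are identical.

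The Cebpb promoter is shown because it holds the same core as that of Egr2. The 250 bases before its start are chr2:167688665-167688914 on the plus strand, with capitals at TGACG or CGTCA.
Cebpb: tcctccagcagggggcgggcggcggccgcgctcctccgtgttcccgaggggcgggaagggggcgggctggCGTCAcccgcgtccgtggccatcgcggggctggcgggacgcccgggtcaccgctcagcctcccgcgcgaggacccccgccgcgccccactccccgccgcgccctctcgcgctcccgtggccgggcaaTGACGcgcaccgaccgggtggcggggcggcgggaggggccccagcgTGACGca
The cores lie at -180 to -176, -53 to -49 and -7 to -3 from the start site, and none of the other motifs matched in this window. The window is 81.6% G and C, against 61.6% for that of Egr2.

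Most genes of the IL-6 family and the acute phase had no value, and those listed were higher. Many of these genes are known targets or inducers of C/EBP beta and delta. Of 21 genes, 6 were higher (28.6%, against 9.03% of all protein coding symbols), none was lower and 15 had no value analysed here. The median log2 fold change of these 6 was 1.68, against 1.06 over all listed rises and 0.67 over all listed genes. Serpina3n, a serine protease inhibitor, was at 3.07 (adjusted p = 2.31e-242) and Lcn2, an iron-sequestering acute phase protein, at 2.56 in the authors' deposited table. Socs3, the feedback inhibitor of STAT3 signalling, was at 1.91 (adjusted p = 3.81e-45) and the oncostatin M receptor gene Osmr at 1.44 in the authors' deposited table. Stat3 was at 0.66 in the authors' deposited table. Recentring on the median of the listed genes, which turns every rise under it lower, gave -0.01 for Stat3. The cytokine genes Il6, Il11, Lif and Osm and the acute phase genes Saa3, Hp, Lbp, Orm1 and Cp have no value analysed here.

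Atf3 had the smallest change of the 6 and the weakest adjusted p. Its log2 fold change of 0.09 is a 1.07-fold difference, with an adjusted p of 0.0343, in the authors' deposited table. It was the smallest of all 2213 listed rises, and 3893 of the 3939 listed genes had a smaller adjusted p. Subtracting a constant changed its sign. It was -0.01 after recentring on the midpoint between the edges of listed rises and falls, and -0.58 after recentring on the median of the listed genes. Both constants come from genes already selected as changed, so neither is an estimate of no change. At an adjusted p threshold of 0.01 Atf3 was the single member lost.

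Atf3 (ENSMUSG00000026628.13) lies at chromosome 1, 191170296 to 191218039, on the minus strand, and is the longest of the 6 at 47744 bases. The promoter that RefSeq gives, chr1:191183334-191183583 on the minus strand, starts 7 bases from the GENCODE transcript with the longest coding sequence. It is shown because Atf3 is the member with the least change, with capitals at the same core.
Atf3: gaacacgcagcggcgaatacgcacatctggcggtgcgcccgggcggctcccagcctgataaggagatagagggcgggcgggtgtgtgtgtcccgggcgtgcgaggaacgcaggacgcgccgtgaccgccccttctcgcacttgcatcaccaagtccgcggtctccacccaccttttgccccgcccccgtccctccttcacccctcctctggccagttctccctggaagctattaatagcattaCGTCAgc
CGTCA lies at -7 to -3 from the start site at 191183333, and none of the other motifs matched in this window. The core, found in 17.8% of all promoters, was present in the only promoters matched, those of Egr2, Cebpb and Atf3. Their log2 fold changes in the authors' deposited table run from 1.81 to 0.09, and nothing about the core is read from this.

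Some relatives of ATF3 were listed too, and since Atf3 is the smallest listed rise, any of them listed as higher must exceed it. Of 17 genes of the ATF and CREB family, 5 were higher with Atf3 included (29.4%, against 9.03% of all protein coding symbols). None was lower and 12 had no value, among them Atf4, Atf6 and Creb1. Creb3l2 was at 1.01 (adjusted p = 1.59e-44), Creb3l1 at 0.79 and Creb3 at 0.78 in the authors' deposited table. These encode membrane-anchored factors that are cut free when the secretory pathway is loaded. Creb5 was at 0.68 in the authors' deposited table. ATF3 dimerises with JUN proteins. Of 11 genes of the FOS and JUN family 1 was listed (9.09%), Junb at 0.70 (adjusted p = 0.0145) in the authors' deposited table. Fos, Fosb, Fosl1, Fosl2, Jun and Jund have no value analysed here.

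Atf3 and Cebpb are also known to be induced in the integrated stress response, in which ATF4 drives genes of amino acid supply. Of 21 such target genes, 9 were higher (42.9%, against 9.03% of all protein coding symbols) and 2 lower (9.52%, against 6.19%). The other 10 had no value analysed here, and the background also counts genes silent in heart. The median log2 fold change of the listed ones was 1.23, against 0.67 over all listed genes. Gdf15, a stress cytokine gene, was at 3.23, Mthfd2, of mitochondrial folate metabolism, at 1.87, and the amino acid transporter gene Slc7a5 at 1.30 in the authors' deposited table. Psat1, of serine synthesis, was at 1.24 (adjusted p = 3.98e-10) in the authors' deposited table. Vldlr and Aldh1l2 were lower, at -0.68 and -0.54 in the authors' deposited table. Atf4, Ddit3 and Trib3 have no value analysed here.

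The 3 small values of Atf3, Cebpb and Cebpd share a place in the table. They are the 3 smallest of all 2213 listed rises, in that order. Between -0.3 and 0.55 the table holds 11 genes, 0.279% of the listed genes, and these 3 are among them. The next rises above them were Cdkn1a, the gene of the cell cycle inhibitor p21, at 0.46, and Map3k6, a MAP kinase kinase kinase gene, at 0.48 in the authors' deposited table. Podn, Rprl2 and Gng2 followed at 0.50, 0.51 and 0.52 in the authors' deposited table. The 3 lower genes of that range are on the Y chromosome, Eif2s3y at -0.01, Uty at -0.14 and Kdm5d at -0.21 in the authors' deposited table. Their adjusted p-values run there from 3.03e-10 to 3.55e-07. Only 18 listed rises, 0.813%, are under 1.5-fold, while 250 lie in the next 0.1 log2 units. The sources used here state neither what the authors averaged to give the fold change nor how a gene came to be listed, and the reason for these entries was not tested.

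**Figure D2:**
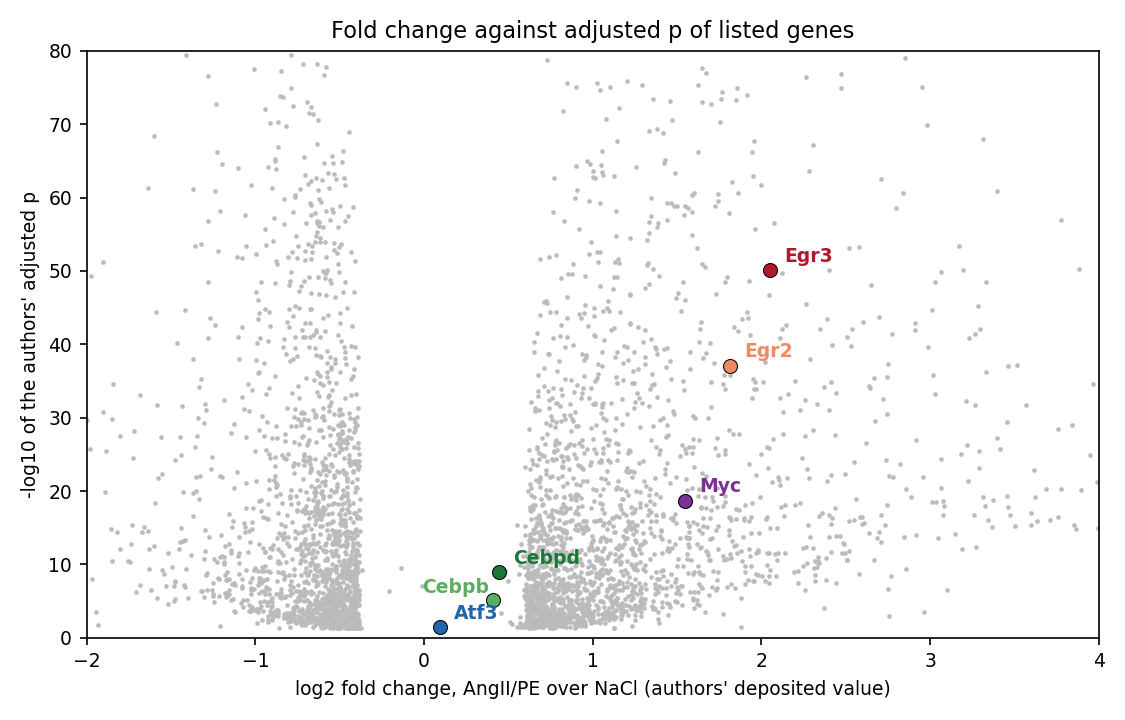
Log2 fold change (x axis) against -log10 of the authors' adjusted p (y axis) for 3636 listed genes (grey), with the 6 factors in color and 303 genes outside the axes not drawn. Egr3 and Egr2 are high and to the right, Myc is lower, and Atf3 sits near the bottom close to a log2 fold change of 0, where its sign depends on the centring.

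The adjusted p of each factor was set beside those of the 200 listed rises nearest to it in log2 fold change. For Egr3, whose adjusted p was 8.09e-51, the median of these genes was 4.72e-24 and 52 had a smaller adjusted p. For Egr2 the median was 2.40e-21 and 73 were smaller. Myc was close to the middle, with 106 of 200 smaller and a median of 2.60e-21. For the 3 small values the nearest genes are nearly all larger rises, up to 0.66, and almost the same set. Among these, 68 had a smaller adjusted p than Cebpd, 111 than Cebpb and 192 than Atf3, with medians of 1.40e-06, 1.18e-06 and 1.40e-06. Egr3 and Egr2 thus had smaller adjusted p-values than most rises of similar size. For Atf3 no listed rise is of similar size, the nearest being Cebpb at 0.41 in the authors' deposited table.

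**Figure D3:**
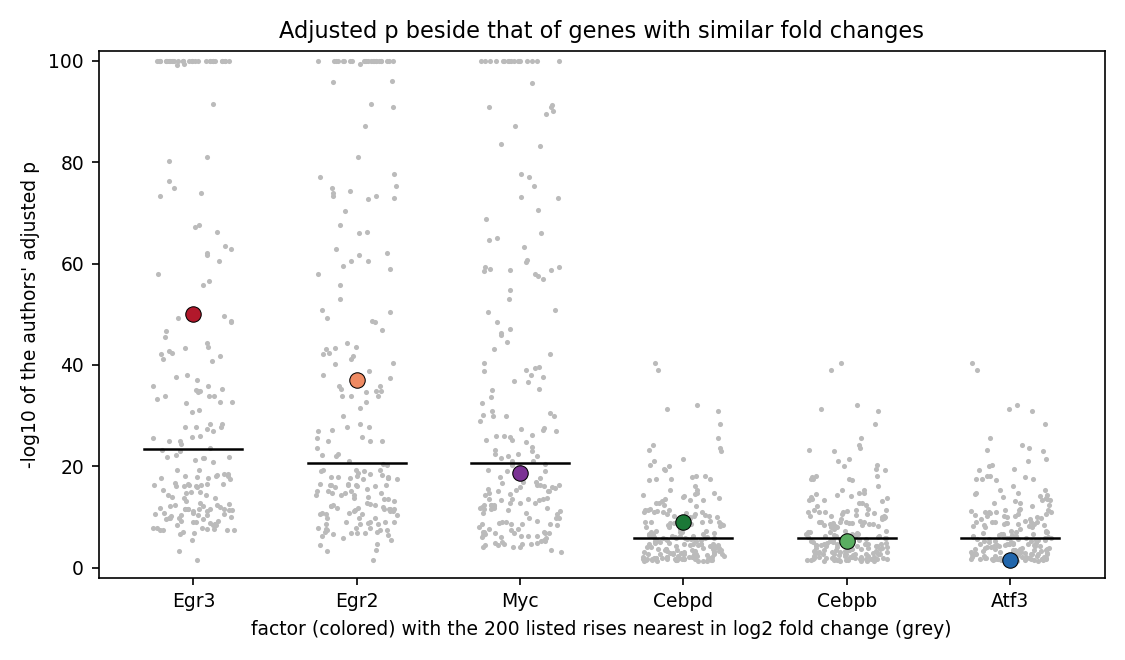
For each factor (colored point), -log10 of the authors' adjusted p (y axis) beside the 200 listed rises nearest in log2 fold change (grey points, those above 100 drawn at 100), with a black line at their median. Egr3, Egr2 and Cebpd lie above the line, Myc and Cebpb just below it, and Atf3 at the bottom of its column; for Cebpd, Cebpb and Atf3 the grey points are nearly all larger rises.

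Genes related to the 6 factors were described by lists, chosen with earlier results of these data known. The 6 lists of transcription factor families hold 64 genes, of which 19 were listed, 17 higher and 2 lower. Without the 6 factors, 11 of 58 (19.0%) were higher and 2 (3.45%) lower, against the 9.03% and 6.19% of all protein coding symbols given above. The median log2 fold change of these 13 listed relatives was 0.79. Among the 19, Mxd3 was highest, followed by Egr3, Egr2 and Myc, while Cebpd, Cebpb and Atf3 took places 15 to 17, before the lower genes Mlxipl and Mycn. MAF and PAR factors, basic leucine zipper proteins like ATF3, had 3 of 10 genes listed, all higher (30.0%). Maff was at 0.85 and Maf at 0.66 in the authors' deposited table. Maf, like any rise under the median of the listed genes, turned lower after recentring on it, to -0.01.

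Most of the other immediate early genes had no value. Of 22, 4 were higher (18.2%, against 9.03% of all protein coding symbols), 1 was lower (4.55%, against 6.19%) and 17 had no value analysed here, among them Nr4a1, Klf4, Srf and Ccn1. Ptgs2, the inducible cyclooxygenase gene, was at 2.74 (adjusted p = 5.16e-25), Ier3 at 1.60 and Gadd45b at 0.97 in the authors' deposited table. Ier5 was at 0.84, and Klf2, a flow-responsive endothelial factor, was lower at -0.68 in the authors' deposited table, with an adjusted p of 6.57e-04 for Klf2. Of 24 genes of the serum response factor and ERK route to immediate early genes, 1 was higher (4.17%), 2 were lower (8.33%) and 21 had no value. The 24 include Dusp, Spry and Spred genes, which restrain the route, and none of these has a value analysed here. Mrtfa, a coactivator of serum response factor, was at 0.69, while the kinase genes Rps6ka2 and Rps6ka5 were at -1.14 and -0.62 in the authors' deposited table. Heat shock genes, which can rise with tissue handling, had 3 of 10 listed, all higher (30.0%). Hspb1 was at 0.95, Hspa1b at 0.83 and Hsp90aa1 at 0.71 in the authors' deposited table. The part of handling in the values of the 6 factors was not tested.

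**Figure D4:**
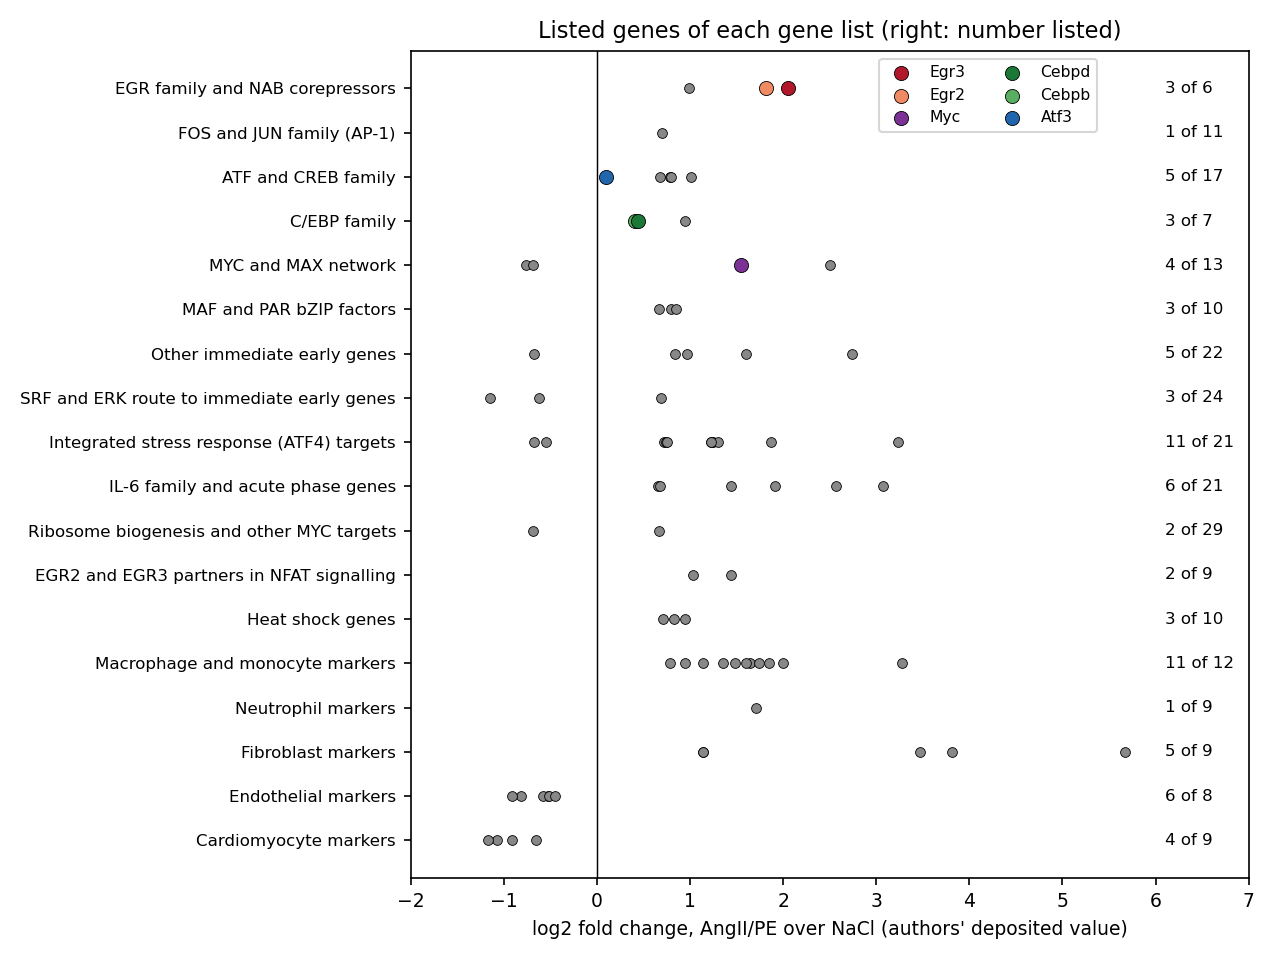
Log2 fold change (x axis, AngII/PE over NaCl) of each listed gene (point) in the 18 gene lists (rows), with the 6 factors in color and the number of listed genes of each list at the right. Points of Atf3, Cebpb, Cebpd, Maf, Stat3 and Rrp12 would move to the left of 0 if values were recentred on the median of the listed genes, and macrophage and fibroblast markers lie to the right while endothelial and cardiomyocyte markers lie to the left.

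Listed markers of the cell types in the tissue moved with the comparison. For scale, 9.03% of all protein coding symbols were listed as higher and 6.19% as lower. Macrophage and monocyte markers were higher for 11 of 12 genes (91.7%), from 0.79 for Csf1r to 3.28 for Ccr2, in the authors' deposited table. Fibroblast markers were higher for 5 of 9 (55.6%), from 1.14 for Thy1 to 5.68 for Postn, in the authors' deposited table. The fibroblast markers Pdgfra, Tcf21, Dcn and Dpt have no value analysed here. Of 9 neutrophil markers 1 was listed (11.1%), Csf3r at 1.71 in the authors' deposited table. Endothelial markers were lower for 6 of 8 (75.0%), from -0.92 for Cldn5 to -0.45 for Emcn, in the authors' deposited table. Cardiomyocyte markers were lower for 4 of 9 (44.4%), from -1.17 for Myl2 to -0.65 for Myh6, in the authors' deposited table. The cardiomyocyte markers Tnnt2, Actn2, Ryr2, Ttn and Actc1 have no value analysed here. Levels were not analysed here, so the labelled tissue could not be checked against its markers by level. In whole tissue a change in the number of cells of a type and a change in RNA per cell cannot be told apart, and the part of the cell mix in the values of the 6 factors was not tested.

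Among the 78 listed genes of all lists ordered by log2 fold change, the next above Egr2 was Itgam at 1.85 and the next below it Adgre1 at 1.74, both macrophage markers, in the authors' deposited table. Next below Egr3 was Fcgr1, also a macrophage marker, at 1.996, and next above it Mxd3 at 2.51 in the authors' deposited table. Myc lay between Ier3 at 1.60 and the complement gene C1qb at 1.49 in the authors' deposited table. Cebpd, Cebpb and Atf3 were each other's neighbours, with Stat3 at 0.66 above them and Emcn at -0.45 below them in the authors' deposited table. Likeness here is the distance between log2 fold changes over 1 comparison, and nothing about joint regulation follows from it.

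Most of the 6 genes are short, a feature shared with many immediate early genes. Their spans are 1504 bases for Cebpb, 3746 for Cebpd, 4984 for Myc, 5412 for Egr3, 6714 for Egr2 and 47744 for Atf3, with a median of 5198. The median over 1979 listed rises with protein coding genes was 25545 and over 21818 protein coding genes 17374. In the transcript with the longest coding sequence Cebpb and Cebpd have 1 exon, Egr2 and Egr3 have 2, Myc has 3 and Atf3 has 4, against a median of 10 among listed rises and 7 among all.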

How the data were processed

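RNA from 12 libraries of left ventricular myocardium (6 control, 6 treated; groups from the labels' sample sources) was sequenced. Per the submitters' processing notes, the authors used cutadapt, STAR 2.4.2a, Subread, featureCounts and DESeq2 with build mm10; the sources used here state neither their roles and settings nor the handling of strand and multiply matching reads. Per the file headers, the deposited table holds the authors' averaged log2 fold change for each gene with its p-value, which they adjusted for the false discovery rate. It lists changed genes only, has no columns of values per library (0 used) and no counts, so depth and precision are unknown and no test was run here. Whether libraries came from separate mice is not in the labels.

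The members and the 18 gene lists were chosen with earlier results of these data known. Named genes were the 6 members, the listed genes of the 6 factor family lists (1 gene and 1 sequence comparison are not reported here), at most 4 of each other list by absolute log2 fold change, and the nearest listed genes in fold change. Marker lists are given by range. Other named genes (those between -0.3 and 0.55, further genes of lists, overlapping and neighbouring genes, and those without a value) were chosen after the values were seen. Ranks and counts were computed with Python 3.11.15 and pandas 2.3.3. Positions, exons and overlaps come from GENCODE M21, promoters from RefSeq GRCm38.p6. The planned protein comparison was replaced by one of coding bases from GENCODE transcripts, in ungapped windows of 90 bases. The window and motif searches were tested on simulated sequences. Alternatives were stricter adjusted p thresholds of 0.01 and 0.001, a size threshold of 1 on the log2 scale, 2 recentrings, synonyms and removal of predicted genes.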

Additional observations from a re-analysis of the deposited data

How the results depend on the processing

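All 6 factors were higher as listed. The number was 5 at adjusted p thresholds of 0.01 and 0.001. Of all listed genes, 88.0% had an adjusted p under 0.001 and 5.10% had one above 0.01. The number was also 5 after recentring on the midpoint between the 1st percentiles of listed rises and falls (0.10). It was 3 both at a log2 fold change of at least 1 and after recentring on the median of the listed genes (0.67). Recentring on that median turned Cebpd to -0.23, Cebpb to -0.26 and Atf3 to -0.58, and recentring on the midpoint turned Atf3 to -0.0098. Both shifts subtract a constant taken from genes already selected as changed, so every rise smaller than the constant turns lower. Egr3, Egr2 and Myc remained higher under both, at 1.38, 1.14 and 0.87 on the median and 1.95, 1.71 and 1.44 on the midpoint. Of the 78 entries of the lists, 76 remained at an adjusted p of 0.01 and 37 with a rise or fall of 1 or more on the log2 scale, and synonyms added none. Without predicted models, RIKEN clones and pseudogenes, the share of listed rises smaller than each factor moved by at most 1.27 percentage points. With 100 or 400 nearest genes in place of 200, settings chosen after seeing the data, the share with a smaller adjusted p moved by at most 6.0 and 2.0 points. Leaving out libraries was not run because values per library were not analysed here. No paired analysis was possible because the labels give no replicate numbers and the table has no columns per library. The unknown depth leaves the precision of each fold change unknown.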

Other observations

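Some of the protein coding genes that flank the 6 factors were listed as well. Of 36 neighbours, 3 on each side of each factor in GENCODE M21, 8 were listed and all 8 were higher, a share of 22.2% against 9.03% of all protein coding symbols. All 3 genes downstream of Cebpb were among them, the phosphatase gene Ptpn1 at 0.91 (adjusted p = 3.19e-35), Ripor3 at 1.49 and the polarity gene Pard6b at 0.97 in the authors' deposited table. Ptpn1 lies 241639 bases from Cebpb, Ripor3 289746 and Pard6b 390586. Egr3 had Bin3 at 0.69 and the death receptor gene Tnfrsf10b at 1.25, and Egr2 had Zfp365 at 2.10, in the authors' deposited table. Cebpd had Mcm4, a DNA replication helicase subunit, at 0.83 and the overlapping Spidr at 0.82 in the authors' deposited table. Tnfrsf10b lies 292792 bases from Egr3, Zfp365 343915 from Egr2 and Mcm4 249886 from Cebpd, while Bin3 lies 17491 from Egr3. Ado, 2323 bases from Egr2, has no value analysed here. No flanking gene of Myc or Atf3 has a value analysed here, and the nearest to Myc lies 1062379 bases away. Genes of a region can also move for reasons unrelated to each other, and no test was made.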
